A study of Mus musculus with 16 samples.

Results

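The genes described here encode the proton pump that acidifies the lysosome, the lysosomal proteases called cathepsins, and the lysosomal membrane glycoproteins Lamp1 and Lamp2. They were chosen by a rule on names, with earlier results of these data known. It takes every protein-coding gene whose symbol starts with Atp6v0, Atp6v1 or Atp6ap, or is Cts followed by 1 letter, together with Lamp1 and Lamp2. The rule took 46 of the 46078 genes in the count table, of which 40 had at least 1 count in some library and 33 had enough counts to be tested. Messenger RNA was measured by poly(A)-selected RNA sequencing in 16 mouse livers, in 4 groups of 4. All mice were C57BL/6, aged 22 weeks, with diet-induced obesity and a fatty liver, which the control group had too. The controls received saline. The Semaglutide group received an agonist of the GLP-1 receptor, and the Dicretin group a co-agonist of the GLP-1 and glucagon receptors. The calorie restriction group was fed less, so as to lose a matching amount of weight without a drug. The sources used here do not give doses, treatment length or sex. The labels number the samples and do not say in words that each came from a separate mouse, so p-values measure the spread between these samples.

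The vacuolar ATPase is a rotary machine with a cytosolic and a membrane sector. The V1 sector sits in the cytosol and burns ATP in its A and B subunits, the V0 sector lies in the membrane and carries protons through a ring of c subunits, and several subunits exist as alternative isoforms encoded by separate genes. The acid it makes activates the cathepsins, which are made as inactive precursors, and the liver relies on lysosomes for the breakdown of proteins and organelles during fasting, when glucagon is high. Many lysosomal genes carry a short promoter element, the CLEAR element, that is bound by the transcription factor TFEB and its relatives.

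Promoter windows of 300 bases, from 250 before the start site to 50 after it, were available for 35 of the 46 genes (RefSeq, GRCm38.p6). The core of the CLEAR element, TCACGTGA, lay in the windows of 5 of these 35 genes (14.3%), against 1.12% of all 27025 genes with a promoter and 1.41% of protein-coding genes. The shorter E-box CACGTG, which the CLEAR core contains, lay in 9 of 35 (25.7%), against 8.09% of all genes. The cyclic AMP response element TGACGTCA lay in 0 of 35, against 2.03%. Each of the 3 motifs reads the same on both strands, so both strands were searched. The 5 promoters with a CLEAR core are printed below, because they show where the element lies in pump and protease genes alike, and Lamp1 is printed for its run of E-boxes. Each line holds 150 bases before the start site and 30 from it, 5′ to 3′ on the gene's strand, and capitals mark the CLEAR core or, in Lamp1, the E-boxes.
Atp6v0d1: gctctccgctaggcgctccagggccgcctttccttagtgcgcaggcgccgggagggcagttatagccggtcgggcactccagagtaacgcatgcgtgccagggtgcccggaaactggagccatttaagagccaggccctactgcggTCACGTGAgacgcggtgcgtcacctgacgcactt
Atp6v0e: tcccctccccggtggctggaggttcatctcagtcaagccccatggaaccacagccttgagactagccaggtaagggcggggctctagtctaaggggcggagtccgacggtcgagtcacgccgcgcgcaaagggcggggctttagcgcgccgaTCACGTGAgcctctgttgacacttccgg
Atp6v1a: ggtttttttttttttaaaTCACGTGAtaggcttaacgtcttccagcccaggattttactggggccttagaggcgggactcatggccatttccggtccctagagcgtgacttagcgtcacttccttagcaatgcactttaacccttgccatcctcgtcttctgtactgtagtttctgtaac
Ctsd: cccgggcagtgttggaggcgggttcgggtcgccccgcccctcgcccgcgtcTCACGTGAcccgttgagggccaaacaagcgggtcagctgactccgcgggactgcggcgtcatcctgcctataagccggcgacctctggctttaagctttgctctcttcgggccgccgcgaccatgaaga
Ctsa: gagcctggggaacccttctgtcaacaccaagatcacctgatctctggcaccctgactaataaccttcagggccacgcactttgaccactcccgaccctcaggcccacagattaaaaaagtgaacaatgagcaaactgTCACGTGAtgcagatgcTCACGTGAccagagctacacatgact
Lamp1: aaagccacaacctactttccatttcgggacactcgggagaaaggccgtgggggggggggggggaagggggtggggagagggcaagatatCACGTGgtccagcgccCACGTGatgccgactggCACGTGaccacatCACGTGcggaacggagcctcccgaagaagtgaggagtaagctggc
These stretches are at chr8:105566035-105566214, minus strand (Atp6v0d1), at chr17:26676246-26676425, plus strand (Atp6v0e), at chr16:44139230-44139409, minus strand (Atp6v1a), at chr7:142387798-142387977, minus strand (Ctsd), at chr2:164833623-164833802, plus strand (Ctsa) and at chr8:13159011-13159190, plus strand (Lamp1). Counted with the start site as 0, the CLEAR core began at -4 in Atp6v0d1, at 2 in Atp6v0e, at -132 in Atp6v1a, at -99 in Ctsd and at -13 and 4 in Ctsa. The table holds 39 windows for the 35 genes. A second window of Ctsa, upstream of the one shown and over the annotated start of the gene (chr2:164832622-164832921), held no match to any of the 3 motifs. The windows of Atp6v0e and Atp6v1a do not reach the annotated gene starts either. Those starts lie upstream, at chr17:26663231 for Atp6v0e and chr16:44139705 for Atp6v1a. Lamp1 held 4 E-boxes, which began at -61, -45, -28 and -15. A match describes these letters only.

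Library totals ran from 12.144 to 18.755 M counts. Levels are given in CPM, which are counts scaled to the same library size, and the values of a group's libraries always follow the order 35, 50, 73, 78 (saline), 7, 8, 52, 79 (calorie restriction), 11, 15, 31, 51 (Semaglutide) and 14, 23, 64, 65 (Dicretin), the numbers in the labels. Errors of a level are SDs over 4 libraries, and differences are log2 fold changes with their SE from edgeR's quasi-likelihood test, and passing means an adjusted p under 0.05 (Benjamini-Hochberg, over 12910 genes). The 5 hepatocyte markers matched, among them Alb and Apoa1, summed to between 67970 and 140300 CPM in the 16 libraries, so the defining markers of liver were present throughout.

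The 46 genes together held 0.609% to 0.645% of all counts in the Dicretin libraries and 0.408% to 0.518% in the other 12, without overlap. Their summed level was 4738.5 ± 126 CPM in saline, 4345.8 ± 250.2 under calorie restriction, 4680.4 ± 567 under Semaglutide and 6329.9 ± 615 under Dicretin. The heatmap of all tested genes shows the Dicretin columns as the darkest red block, which runs through most pump subunits and several cathepsins but not through Lamp1. In bulk tissue, a change in the share of a cell type and a change in RNA per cell cannot be told apart.

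**Figure D1:**
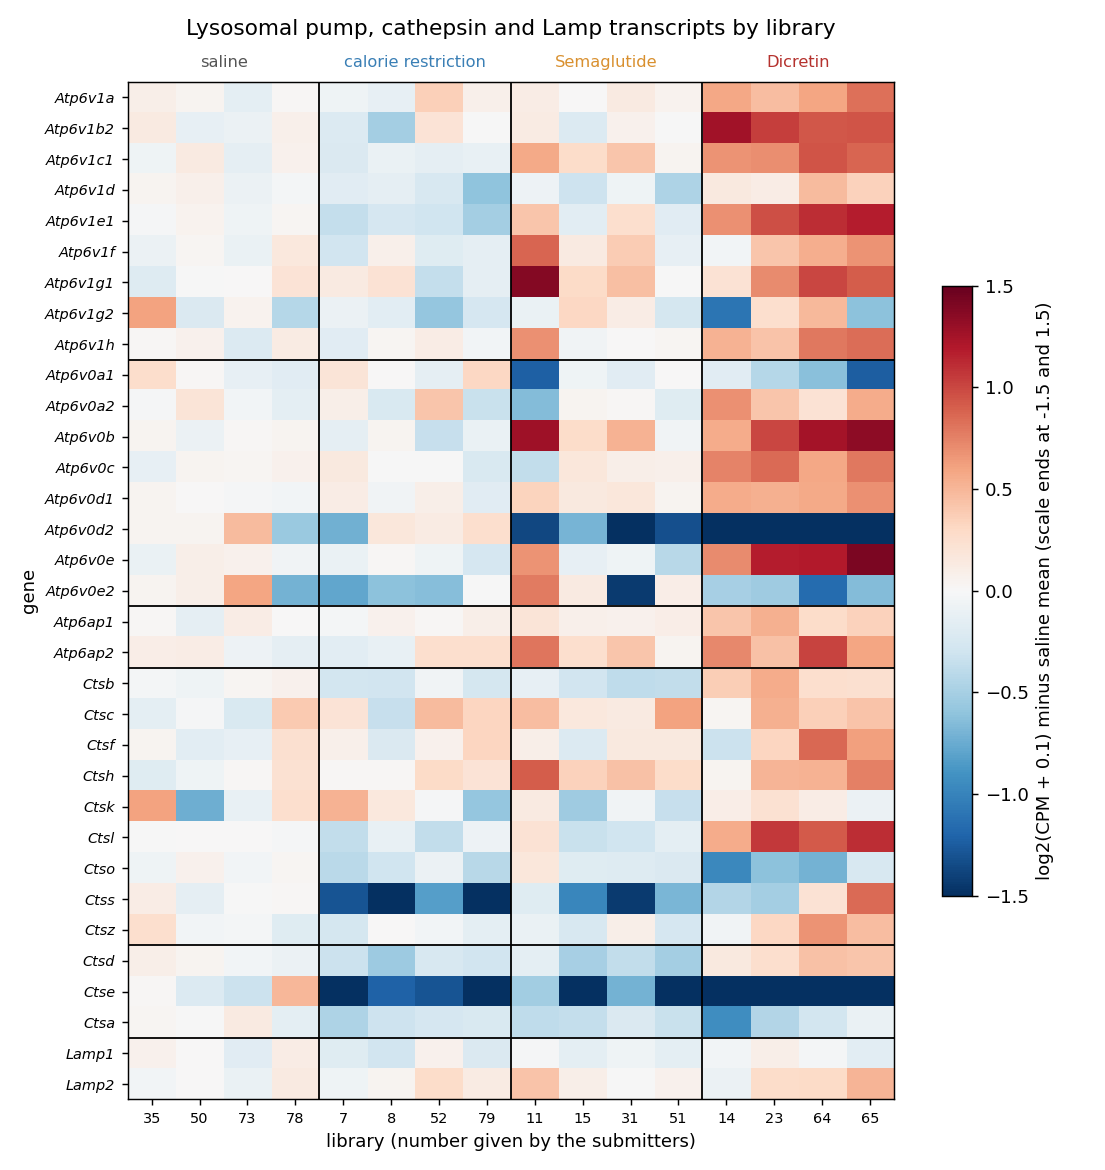
Colour shows log2(CPM + 0.1) minus the saline mean for each of the 33 tested genes (rows, in blocks for the V1 sector, V0 sector, accessory proteins, cysteine cathepsins, aspartic and serine cathepsins, and Lamp1 and Lamp2) in each of the 16 libraries (columns, by group and number), with the scale ended at -1.5 and 1.5. Dicretin columns are red for most pump subunits and for Ctsl, and blue for Atp6v0d2, Ctse and Ctso.

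Between genes, levels were compared per kilobase of annotated exon. In saline livers Lamp1 was the highest at 260.3 ± 21.4 CPM per kilobase, followed by Ctsz (172 ± 22.5), Ctsd (154 ± 8.35), Ctsb (117 ± 4.97) and Ctsl (92.3 ± 0.644). Lamp1 and Ctsz did not overlap, while the means of Ctsz and Ctsd differed by less than the SD of Ctsz. The highest pump subunits per kilobase were the G1 subunit Atp6v1g1 (56.9 ± 6.36), the F subunit Atp6v1f (52.6 ± 4.46) and the d1 subunit Atp6v0d1 (40.9 ± 1.01). Exon length joins all annotated transcripts of a gene, which lowers the per-kilobase level of genes with long alternative models such as Lamp2 and Atp6v1h.

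Against saline, 16 of the 33 tested genes rose in Dicretin livers and 4 fell, which is 48.5% and 12.1% of them. Over all 12910 genes, 17.5% rose and 19.2% fell, and the difference between these shares and those of the 33 genes was not tested. Their median log2 fold change was 0.39, beside -0.005 for all tested genes. The rises were in the pump, with 6 of 9 tested V1 genes, 5 of 8 V0 genes and both tested accessory genes, and in 3 cysteine cathepsins. Of all 12 tested cathepsins, 3 rose and 3 fell. Of these, the rise of Ctsl and the fall of Ctso passed under every alternative tried. Of 16 alternatives, the rises of Ctsb and Ctsh did not pass under 6 and 8, and the fall of Ctsa under 9. Ctse, the other fall, met the low-count filter through saline, where it was high, so it could hardly be called as a rise. In the plot of differences the Dicretin panels carry nearly all the coloured points.

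**Figure D2:**
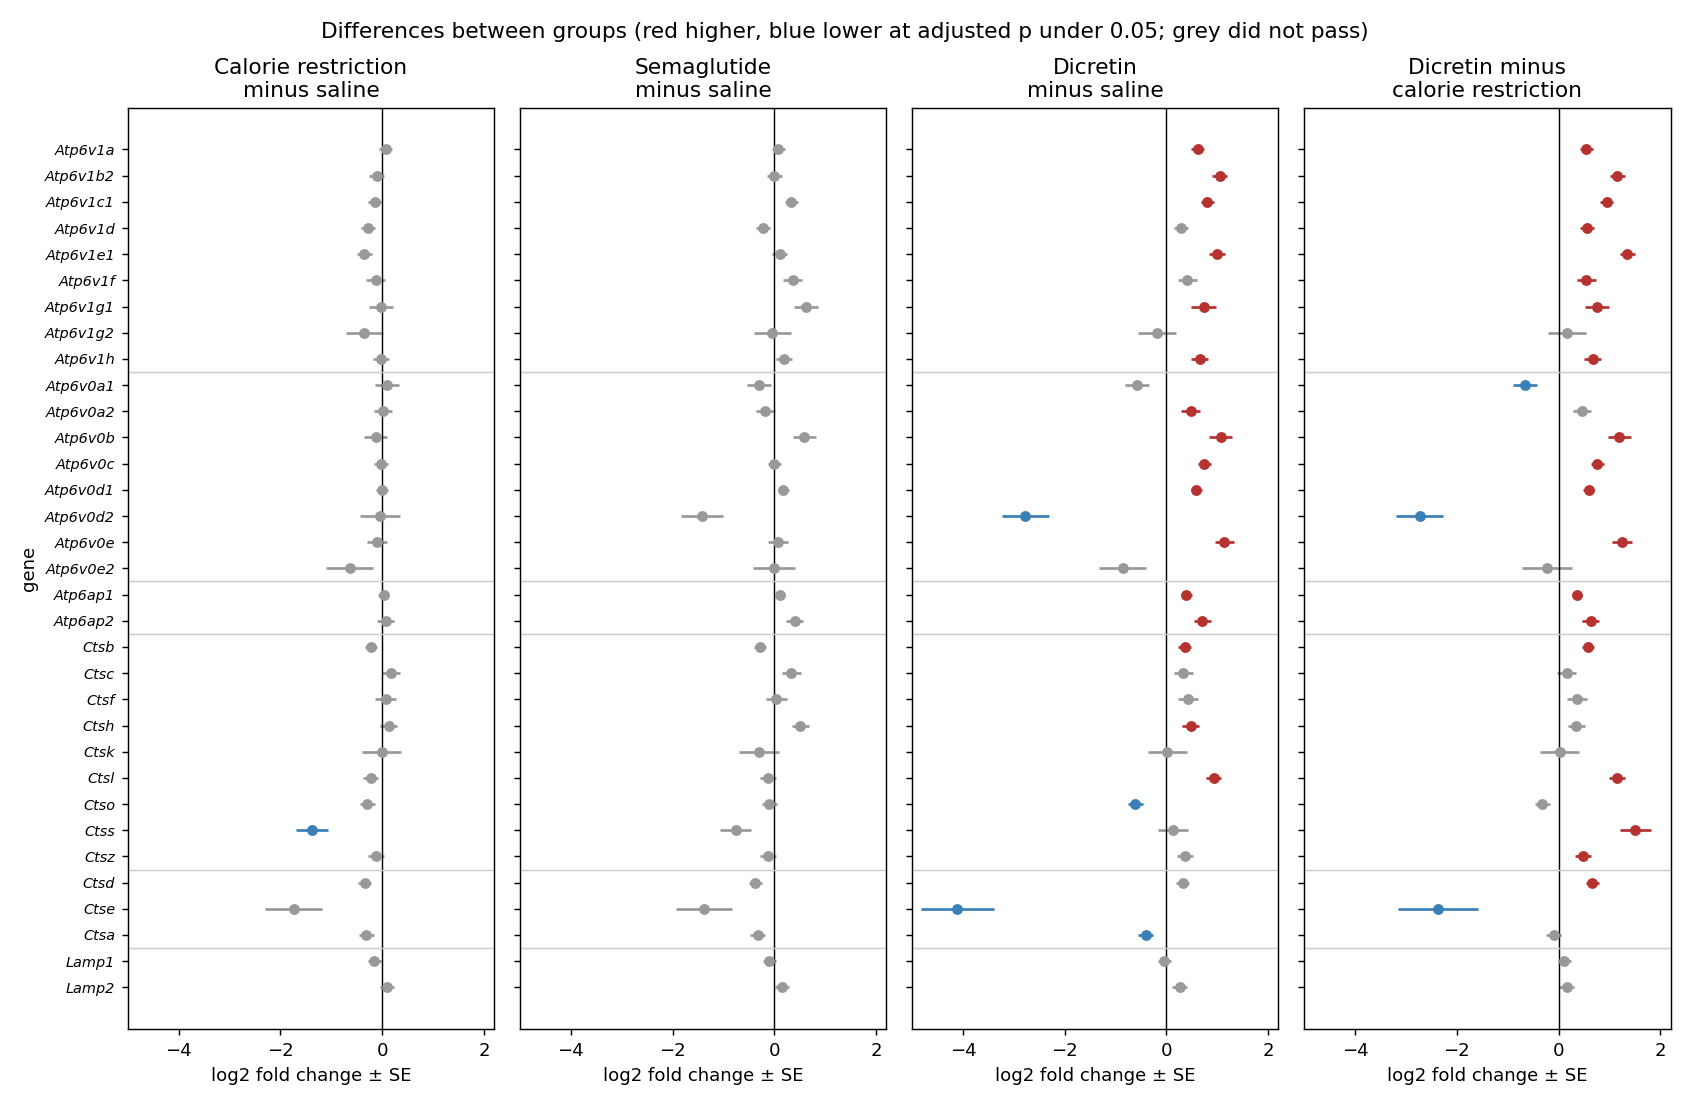
Points are log2 fold changes and bars are SEs for each tested gene (rows) in 4 comparisons (panels), with red for higher and blue for lower at an adjusted p under 0.05 and grey for genes that did not pass. The panel of calorie restriction against saline has 1 coloured point, Ctss, and the panel of Semaglutide against saline has 0, while Dicretin has 20 against saline and 22 against calorie restriction.

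In the V1 sector, the E1 subunit Atp6v1e1, part of the outer stalk that holds the motor still, had the largest counts. Its level was 119.6, 125, 115 and 123 CPM in saline, 94.02, 101, 98.4 and 84.6 under calorie restriction, 161, 109, 144 and 107 under Semaglutide and 194, 235, 259.5 and 274 under Dicretin. Every Dicretin library lay above the 12 others. The rise over saline was 0.995 ± 0.15 (adjusted p = 4.92e-05). Atp6v1b2, the B subunit isoform found in most tissues, was at 47.2, 39.4, 40.5 and 45.2 CPM in saline, 37.3, 30.2, 49.5 and 42.8 under calorie restriction, 46.9, 37.1, 44.97 and 42.95 under Semaglutide and 103, 88.1, 82.2 and 82.4 under Dicretin. Its rise over saline was 1.05 ± 0.15 (adjusted p = 2.52e-05), and the 3 groups other than Dicretin overlapped one another. The catalytic A subunit Atp6v1a was at 42.8, 41.6, 36.3 and 41.02 CPM in saline and 60.2, 55.7, 60.98 and 71.6 under Dicretin. These groups did not overlap either, and the rise was 0.62 ± 0.13 (adjusted p = 0.000995). Calorie restriction (38.5, 37.04, 51.7 and 42.5 CPM) and Semaglutide (43.7, 40.4, 44.2 and 41.95 CPM) lay near saline for this subunit.

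The C1 subunit Atp6v1c1, which is tied to the joining and parting of the sectors, was at 35.1, 40.5, 33.5 and 38.5 CPM in saline, 31.7, 34.2, 33.6 and 33.9 under calorie restriction, 54.5, 44.7, 49.1 and 37.9 under Semaglutide and 58.7, 59.7, 71.0 and 67.6 under Dicretin. Its rise in Dicretin was 0.80 ± 0.13 (adjusted p = 9.6e-05). The Semaglutide mean lay between saline and Dicretin, with overlap with saline. The H subunit Atp6v1h, a regulator of the motor, was at 59.6, 61.2, 50.8 and 63.9 CPM in saline, 52.2, 59.7, 63.5 and 57.2 under calorie restriction, 94.2, 56.5, 58.8 and 59.98 under Semaglutide and 84.5, 79.3, 102 and 105 under Dicretin. It rose by 0.65 ± 0.16 (adjusted p = 0.00376) in Dicretin, and 1 Semaglutide library reached the Dicretin range. The stalk subunit Atp6v1g1 was at 56.3, 63.9, 64.4 and 73.9 CPM in saline, 168, 78.8, 87.9 and 63.98 under Semaglutide and 74.6, 105, 129 and 121 under Dicretin. Its rise was 0.73 ± 0.24 (adjusted p = 0.0241), and it did not pass without saline 35 or Dicretin 64 or 65 (adjusted p from 0.0549 to 0.069). The F subunit Atp6v1f (0.41 ± 0.19 (adjusted p = 0.0895)) and the D subunit Atp6v1d (0.28 ± 0.14 (adjusted p = 0.121)) of the central shaft did not pass against saline. Atp6v1f passed without Dicretin 14 (adjusted p = 0.0223).

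Of the alternative V1 isoforms, Atp6v1g2, best known from brain, was at 1.43 ± 0.504 CPM in saline and 1.27 ± 0.646 under Dicretin, a difference of -0.19 ± 0.37 (adjusted p = 0.721) that did not pass. It made up 1.02% ± 0.469 of the summed G isoforms per kilobase in saline and 0.518% ± 0.206 in Dicretin. The kidney isoform Atp6v1b1 had 1 count in all 16 libraries, Atp6v1c2 had 18, and Atp6v1e2 and Atp6v1g3 had 0. Atp6v1fnb, a neighbour of Atp6v1f that the name rule takes in, had 1 count.

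In the V0 sector, 5 of 8 tested genes rose in Dicretin livers against saline and 1 fell. The small e subunit Atp6v0e was at 29.9, 34.3, 33.6 and 31.01 CPM in saline, 29.96, 32.5, 30.8 and 27.1 under calorie restriction, 51.5, 29.6, 30.8 and 24.04 under Semaglutide and 52.5, 72.6, 73.4 and 85.8 under Dicretin. Every Dicretin library was above every other library, with the nearest in Semaglutide. The rise over saline was 1.14 ± 0.19 (adjusted p = 0.000173). Atp6v0b, which encodes the c'' subunit of the proton-carrying ring, was at 53.7, 49.1, 52.7 and 53.5 CPM in saline, 47.6, 53.8, 41.1 and 48.8 under calorie restriction, 126, 63.4, 75.1 and 50.2 under Semaglutide and 77.02, 105, 124 and 132 under Dicretin. It rose by 1.07 ± 0.22 (adjusted p = 0.00105), and its Semaglutide libraries spread over both the saline and the Dicretin ranges. The ring's main c subunit, Atp6v0c, was at 26.6, 29.7, 29.5 and 30.2 CPM in saline, 32.1, 28.8, 28.9 and 24.7 under calorie restriction, 22.4, 32.5, 30.7 and 30.4 under Semaglutide and 48.5, 52.2, 43.4 and 50.2 under Dicretin. No Dicretin library overlapped another group, and the rise over saline was 0.75 ± 0.14 (adjusted p = 0.000299).

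The d and a subunits moved differently between isoforms. The d subunit couples the ring to the V1 sector. Its widespread isoform Atp6v0d1 was at 75.7, 73.9, 72.7 and 71.4 CPM in saline, 79.1, 70.6, 78.1 and 65.1 under calorie restriction, 92.9, 81.3, 82.4 and 75.3 under Semaglutide and 108, 106, 109 and 118 under Dicretin, a rise over saline of 0.59 ± 0.11 (adjusted p = 0.000449). The isoform Atp6v0d2 (chr4:19876841-19922605, minus strand, GRCm38), known from osteoclasts and macrophages, went the other way. It was at 5.901, 5.93, 8.03 and 3.89 CPM in saline, 3.45, 6.49, 6.28 and 6.88 under calorie restriction, 2.18, 3.52, 0.907 and 2.25 under Semaglutide and 0.214, 1.14, 0.6098 and 1.65 under Dicretin. All Dicretin and all Semaglutide libraries lay below the saline range, and the fall in Dicretin was -2.77 ± 0.46 (adjusted p = 0.000128). Atp6v0d2 made up 5.05% ± 1.36 of the d isoforms per kilobase in saline, 5.02% ± 1.60 in calorie restriction, 1.74% ± 0.858 in Semaglutide and 0.529% ± 0.347 in Dicretin.

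The a subunit steers the pump to its membrane. Atp6v0a2 was at 26.1, 30.1, 25.7 and 23.9 CPM in saline and 42.3, 35.3, 30.7 and 38.9 under Dicretin, which did not overlap, and rose by 0.48 ± 0.18 (adjusted p = 0.0476). It did not pass without saline 35, 73 or 78 or Dicretin 14, 23 or 65 (adjusted p from 0.0572 to 0.11). With the other fits and scalings counted, it did not pass under 8 of 16 alternatives. Atp6v0a1 was at 43.4, 36.5, 33.1 and 32.01 CPM in saline and 32.1, 26.6, 23.3 and 15.2 under Dicretin, a difference of -0.57 ± 0.24 (adjusted p = 0.0653) that did not pass. It passed without Dicretin 14 (adjusted p = 0.026). Levels per kilobase of Atp6v0a1, Atp6v0a2 and Atp6v0a4 were summed. A further a isoform, Tcirg1, is outside the name rule and was not in the sum. Atp6v0a2 made up 41.7% ± 3.29 of this sum in saline, with 37.0% to 44.6% across libraries, and 56.2% to 71.3% in Dicretin. The 2 groups of shares did not overlap, and this ratio was not tested. Part of Atp6v0a2 lies opposite another annotated gene, 4930404A12Rik, over 663 exon bases, and the strand setting of the counting is unknown. The kidney isoform Atp6v0a4 had 19 counts in all and was not tested. Atp6v0e2 was near the lower limit at 0.922 ± 0.353 CPM in saline and 0.505 ± 0.114 under Dicretin, a difference of -0.86 ± 0.47 (adjusted p = 0.162) that did not pass.

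Both tested accessory genes rose in Dicretin livers against saline. Atp6ap2, also called the prorenin receptor and needed for pump assembly, was at 43.3, 43.7, 38.5 and 36.9 CPM in saline, 36.4, 37.4, 48.4 and 48.4 under calorie restriction, 70.8, 48.3, 53.9 and 41.8 under Semaglutide and 66.9, 54.8, 81.9 and 60.9 under Dicretin. The Dicretin and saline groups did not overlap, with a rise of 0.70 ± 0.17 (adjusted p = 0.00318), and Semaglutide libraries overlapped both. Atp6ap1, the other assembly partner, was at 73.2, 65.95, 78.7 and 73.03 CPM in saline, 71.3, 75.8, 73.3 and 77.02 under calorie restriction, 82.8, 76.6, 75.7 and 77.6 under Semaglutide and 96.6, 106, 87.6 and 92.3 under Dicretin. Its rise was smaller, 0.39 ± 0.11 (adjusted p = 0.00734), and Dicretin lay above the 12 other libraries. Atp6ap1l had 2 counts, both in 1 Semaglutide library.

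**Figure D3:**
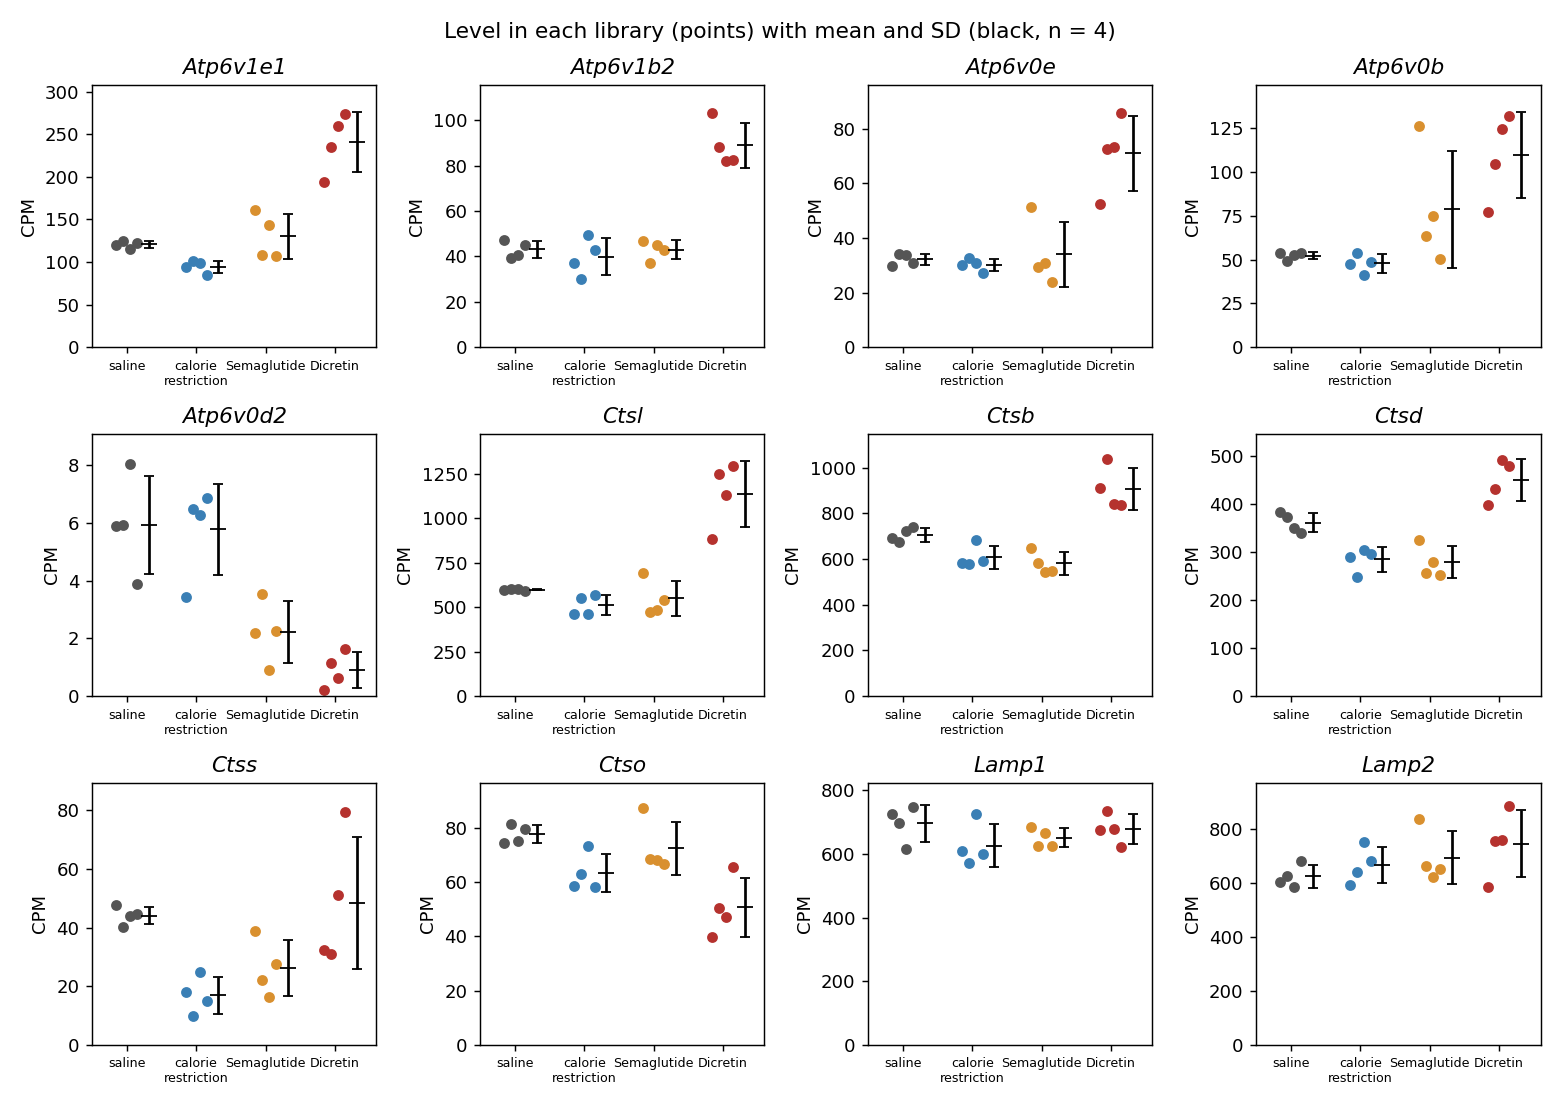
Each panel gives the CPM of 1 gene in every library (points, by group) with the group mean and SD (black, n = 4), and every vertical axis starts at 0. Dicretin points stand above the other groups for Atp6v1e1, Atp6v1b2, Atp6v0e, Ctsl, Ctsb and Ctsd and below saline for Atp6v0d2 and Ctso, while the groups overlap for Lamp1 and Lamp2.

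Of the 9 tested cysteine cathepsins, Ctsb, Ctsh and Ctsl rose in Dicretin livers against saline and Ctso fell. Ctsl (chr13:64359337-64370890, minus strand, GRCm38), a broad endopeptidase, was at 598, 603, 601 and 594 CPM in saline, 464, 554, 462 and 569.8 under calorie restriction, 694, 476, 486 and 543 under Semaglutide and 882, 1250.0, 1132 and 1294 under Dicretin. Saline libraries lay close together and every Dicretin library was above all others. The rise was 0.93 ± 0.15 (adjusted p = 0.000134). Ctsl shares 1742 exon bases with Gm47123 on the opposite strand and 395 with Gm49230 on its own, so its level is uncertain to that extent. Ctsb, an endopeptidase that also trims dipeptides, was at 692, 673, 723 and 741 CPM in saline, 585, 577, 684 and 591 under calorie restriction, 651, 581, 542 and 549 under Semaglutide and 910.0, 1039, 844 and 838 under Dicretin. Dicretin lay above the other 12 libraries, and calorie restriction and Semaglutide were mostly below saline. The rise over saline was 0.36 ± 0.12 (adjusted p = 0.0285), and it did not pass without saline 35 or 50 or Dicretin 23 (adjusted p from 0.0637 to 0.0697). With the other fits and scalings counted, it did not pass under 6 of 16 alternatives (adjusted p up to 0.0716). Ctsb shares 774 exon bases with Fdft1 on the opposite strand.

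The aminopeptidase Ctsh was at 239.9, 262, 276 and 319.7 CPM in saline, 275, 276, 333 and 315 under calorie restriction, 513, 346, 371 and 331 under Semaglutide and 282, 389, 392 and 462 under Dicretin. Both drug groups were high for Ctsh, and its Dicretin range overlapped saline. The rise in Dicretin was 0.48 ± 0.17 (adjusted p = 0.0347) and did not pass without saline 35, 50 or 73 or Dicretin 23, 64 or 65 (adjusted p from 0.0522 to 0.109). With the other fits and scalings counted, it did not pass under 8 of 16 alternatives. In Semaglutide the difference was 0.51 ± 0.17 (adjusted p = 0.1). Ctso, a little-studied cathepsin, was at 74.5, 81.4, 75.2 and 79.4 CPM in saline, 58.7, 63.01, 73.2 and 58.1 under calorie restriction, 87.2, 68.6, 68.04 and 66.5 under Semaglutide and 39.6, 50.5, 47.3 and 65.5 under Dicretin. Every Dicretin library was below saline, with a fall of -0.62 ± 0.15 (adjusted p = 0.00313). The carboxypeptidase Ctsz (0.36 ± 0.15 (adjusted p = 0.0733)), the dipeptidyl peptidase Ctsc (0.33 ± 0.18 (adjusted p = 0.165)), Ctsf (0.42 ± 0.20 (adjusted p = 0.106)) and the bone collagenase Ctsk (0.02 ± 0.39 (adjusted p = 0.979)) did not pass. Without Dicretin 14, which was lowest of its group for Ctsz and Ctsf, these passed at adjusted p = 0.0114 for Ctsz and 0.00667 for Ctsf. Ctsz also passed without saline 35 (adjusted p = 0.0424). Ctsw, from natural killer and T cells, had 121 counts, Ctsj had 11, at 0.0536, 0.127, 0 and 0.693 CPM in Dicretin and none in the 12 other libraries, and the placental Ctsm, Ctsq and Ctsr had 0.

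Ctss, the cathepsin of antigen-presenting cells, had another pattern. It was at 47.6, 40.2, 44.02 and 44.7 CPM in saline, 17.9, 9.93, 24.9 and 14.8 under calorie restriction, 38.8, 22.2, 16.3 and 27.4 under Semaglutide and 32.4, 30.9, 51.1 and 79.4 under Dicretin. All calorie-restricted and all Semaglutide libraries were below saline, and Dicretin spread to both sides of it. Against saline the difference was -1.38 ± 0.31 (adjusted p = 0.0101) in calorie restriction, -0.76 ± 0.30 (adjusted p = 0.177) in Semaglutide and 0.13 ± 0.30 (adjusted p = 0.763) in Dicretin, of which the first passed.

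The aspartic protease Ctsd, which cuts many lysosomal substrates and activates other cathepsins, was at 383, 373, 351 and 339.7 CPM in saline, 289, 247, 305 and 297 under calorie restriction, 326, 256, 279.7 and 253 under Semaglutide and 398, 431, 492 and 480.1 under Dicretin. The Dicretin libraries were above saline and the other 8 were below it, without overlap. Neither difference from saline passed, at 0.32 ± 0.13 (adjusted p = 0.0592) in Dicretin and -0.38 ± 0.13 (adjusted p = 0.106) in Semaglutide. They passed without Dicretin 14 (adjusted p = 0.0294) and without Semaglutide 11 (adjusted p = 0.0476). Ctsd shares 808 exon bases with Gm49369 on the same strand. Ctsa, or protective protein, a serine carboxypeptidase that shields other lysosomal enzymes, was at 158, 155, 171 and 140.3 CPM in saline, 113, 125, 131 and 133 under calorie restriction, 119, 121, 134 and 124 under Semaglutide and 81.3, 115, 129 and 145 under Dicretin. All 3 weight-loss groups had lower means than saline. The fall in Dicretin was -0.41 ± 0.15 (adjusted p = 0.0374) and did not pass without saline 35, 50 or 73 or Dicretin 14 or 23 (adjusted p from 0.0762 to 0.129). With the other fits and scalings counted, it did not pass under 9 of 16 alternatives. Ctsa overlaps Neurl2 and Pltp on the opposite strand over 819 exon bases.

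Ctse, an aspartic protease of endosomes in stomach and immune cells, was rare, at 1.57, 1.34, 1.23 and 2.23 CPM in saline, 0.292, 0.611, 0.576 and 0.401 under calorie restriction, 1.05, 0.414, 0.907 and 0.0626 under Semaglutide and 0.0536, 0.0634, 0 and 0.2598 under Dicretin. The Dicretin value rests on 5 counts in all 4 libraries, against 96 in saline. The fitted fall was -4.11 ± 0.72 (adjusted p = 0.000229), and at such counts its size is imprecise. Only the saline group had all 4 libraries above 1 CPM, so Ctse met the low-count filter through the group where it was high. A gene kept in this way could hardly be called as a rise over saline, and Ctse is among the 4 falls counted. The neutrophil protease Ctsg had 0 counts in all 16 libraries.

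The membrane glycoproteins that coat the lysosome did not pass in any of the 6 comparisons. Lamp1 was at 724, 698, 616 and 747 CPM in saline, 611, 571, 726 and 599 under calorie restriction, 685, 626, 667 and 626 under Semaglutide and 674, 737, 679 and 623 under Dicretin. Lamp1 shares 249 exon bases with Grtp1 on the opposite strand. The 4 groups overlapped, and the difference between Dicretin and saline was -0.04 ± 0.12 (adjusted p = 0.834), with a 95% interval of -0.28 to 0.20 computed from the SE. Lamp2, which also serves as the receptor of chaperone-mediated autophagy, was at 604, 628, 584 and 683 CPM in saline, 595, 641, 752 and 682 under calorie restriction, 838, 663, 623 and 653 under Semaglutide and 585, 755, 761 and 886 under Dicretin. The groups overlapped here too. Its difference was 0.26 ± 0.15 (adjusted p = 0.179), with an interval of -0.03 to 0.54, and it passed without Dicretin 14 (adjusted p = 0.0454). The upper end of the Lamp1 interval lies below the rises fitted for Ctsl and Atp6v1e1, which are among the largest. That of Lamp2 lies above the rises fitted for Ctsb (0.36), Atp6ap1 (0.39), Atp6v0a2 (0.48) and Ctsh (0.48). Differences between genes were not tested.

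Weight-matched calorie restriction gave the comparison with similar weight loss and no drug. Against it, Dicretin livers had 19 of 33 genes higher and 3 lower (57.6% and 9.09%), against 15.1% and 16.2% of all genes, with a median log2 fold change of 0.54 beside -0.003 for all tested genes. This comparison and the one with saline share the Dicretin libraries, and their calls are not separate results. The V1 sector had 8 genes that passed, all higher, among them Atp6v1e1 at 1.35 ± 0.15 (adjusted p = 2.43e-06), Atp6v1b2 at 1.16 ± 0.15 (adjusted p = 1.13e-05) and Atp6v1c1 at 0.95 ± 0.13 (adjusted p = 2.15e-05). The D subunit Atp6v1d, 44.3, 45.5, 42.2 and 32.7 CPM in calorie restriction and 55.2, 53.95, 69.3 and 63.5 CPM in Dicretin, was higher by 0.56 ± 0.14 (adjusted p = 0.00507). The V0 genes Atp6v0e (1.24 ± 0.20 (adjusted p = 0.000104)), Atp6v0b (1.20 ± 0.22 (adjusted p = 0.000529)), Atp6v0c and Atp6v0d1 were higher. Atp6v0d2 and Atp6v0a1 were lower, with differences of -2.73 ± 0.46 (adjusted p = 0.000199) and -0.66 ± 0.24 (adjusted p = 0.0399). Both accessory genes were higher, with 0.63 for Atp6ap2 and 0.36 for Atp6ap1, of which Atp6ap1 did not pass in a fit of only these 2 groups (adjusted p = 0.0523) or with no low-count filter (adjusted p = 0.0759).

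Among the proteases in this comparison, Ctsl (1.15 ± 0.15 (adjusted p = 1.88e-05)), Ctsb (0.58 ± 0.12 (adjusted p = 0.00177)), Ctsd (0.66 ± 0.13 (adjusted p = 0.000743)), Ctss (1.51 ± 0.31 (adjusted p = 0.0012)) and Ctsz (0.48 ± 0.15 (adjusted p = 0.0242)) were higher. Ctse was lower, at -2.37 ± 0.79 (adjusted p = 0.029). Some of these calls were lost when a single library was left out. Atp6v1f, at 0.54 ± 0.19 (adjusted p = 0.034), did not pass without calorie restriction 7, 52 or 79 or Dicretin 23, 64 or 65 (adjusted p from 0.055 to 0.101). Atp6v1g1, at 0.76 ± 0.24 (adjusted p = 0.0236), did not pass without calorie restriction 52 or 79 or Dicretin 64 or 65 (adjusted p from 0.0573 to 0.0712). Ctsz was lost without calorie restriction 7 or 79 or Dicretin 64 or 65 (adjusted p from 0.055 to 0.0917), and Ctse without calorie restriction 8 or 52 or Dicretin 14, 23 or 64 (adjusted p from 0.0616 to 0.0777). Atp6v0a1 was lost without calorie restriction 7, 8 or 79 or Dicretin 23, 64 or 65 (adjusted p from 0.057 to 0.122). Genes that passed once a library was left out were Atp6v0a2 without calorie restriction 52 or Dicretin 64 (adjusted p from 0.0167 to 0.0451), Ctsf without Dicretin 14 (adjusted p = 0.0174), Ctsh without Dicretin 14 (adjusted p = 0.0347) and Ctso without Dicretin 65 (adjusted p = 0.0192).

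Dicretin and Semaglutide both act on the GLP-1 receptor, and Dicretin acts on the glucagon receptor as well. Between these drugs, 16 of 33 genes were higher in Dicretin and 3 lower (48.5% and 9.09%), against 14.8% and 17.1% of all genes, with a median log2 fold change of 0.38 beside -0.014 for all tested genes. A fit of only these 2 groups gave 10 higher and 0 lower. Over all genes, that fit called 1216 higher and 1442 lower, where the fit of 4 groups called 1916 and 2212. Atp6v1b2 (1.05 ± 0.15 (adjusted p = 2.92e-05)), Atp6v0e (1.07 ± 0.19 (adjusted p = 0.000377)), Atp6v1e1 (0.89 ± 0.15 (adjusted p = 0.000171)) and Atp6v0c (0.74 ± 0.14 (adjusted p = 0.000357)) were higher. So were Ctsl (1.05 ± 0.15 (adjusted p = 4.53e-05)), Ctsd (0.69 ± 0.13 (adjusted p = 0.00043)) and Ctsb (0.64 ± 0.12 (adjusted p = 0.000605)). Ctse (-2.72 ± 0.78 (adjusted p = 0.0116)), Atp6v0d2 (-1.35 ± 0.47 (adjusted p = 0.0354)) and Ctso (-0.52 ± 0.15 (adjusted p = 0.0114)) were lower. Ctsh, high in both drug groups, differed by -0.03, with an interval of -0.36 to 0.30. Atp6v0b (0.48 ± 0.22 (adjusted p = 0.107)) and Atp6v1g1 (0.11 ± 0.24 (adjusted p = 0.772)), whose highest Semaglutide value was in library 11, did not pass. Atp6v0b passed without Semaglutide 11 or Dicretin 14 (adjusted p from 0.00165 to 0.043).

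Several calls between the drugs were lost when a single library was left out. These were Atp6ap1 (0.29) without Semaglutide 15, 31 or 51 or Dicretin 14 or 23 (adjusted p from 0.0689 to 0.112), Atp6v1h (0.46) without Semaglutide 15, 31 or 51 or Dicretin 64 or 65 (adjusted p from 0.0818 to 0.108), and Atp6v0d2 without Semaglutide 15 or 51 or Dicretin 14 or 64 (adjusted p from 0.061 to 0.128). Ctss (0.89) was lost without Semaglutide 15, 31 or 51 or Dicretin 64 or 65 (adjusted p from 0.055 to 0.157), and Ctsz (0.49) without Semaglutide 15 or 51 or Dicretin 64 (adjusted p from 0.0516 to 0.0765). Atp6ap2 passed without Semaglutide 11 (adjusted p = 0.0304), Ctsf without Dicretin 14 (adjusted p = 0.0146), and Atp6v0e2 without Semaglutide 31 (adjusted p = 0.049). Atp6v0a2 (0.65 ± 0.18 (adjusted p = 0.0107)), Atp6v0d1, Atp6v1a, Atp6v1c1 and Atp6v1d were the other pump genes higher in Dicretin, at 0.41 for Atp6v0d1, 0.55 for Atp6v1a, 0.47 for Atp6v1c1 and 0.50 for Atp6v1d. In the fit of only these 2 groups, Atp6v0d1 and Atp6v1c1 (adjusted p = 0.0652 for both), Atp6ap1 (0.179), Atp6v1h (0.134), Ctss (0.0878) and Ctsz (0.0939) did not pass, nor did the falls of Ctso (0.0648) and Atp6v0d2 (0.115), and Ctse was not tested. Without Semaglutide 11 and Dicretin 14 together, Atp6v0a2 (adjusted p = 0.0556), Ctse (0.0756), Ctso (0.0682) and Atp6v0d2 (0.104) did not pass. In limma-voom Ctse (adjusted p = 0.0577) and Atp6v0d2 (0.0532) did not pass.

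Semaglutide against saline gave 0 higher and 0 lower of the 33 genes by edgeR, with 1.56% of all genes higher and 2.62% lower. At an unadjusted p under 0.05 there were 5 higher and 6 lower, beside 9.33% and 9.42% of all genes. DESeq2 called 1 higher and 2 lower, and limma-voom 0 and 1. The median log2 fold change was -0.001. The nearest to passing was Atp6v0d2, at -1.43 ± 0.41 (adjusted p = 0.0582), which passed without Semaglutide 15 (adjusted p = 0.0405). Atp6v0b (0.59 ± 0.22 (adjusted p = 0.144)) passed without Semaglutide 51 (adjusted p = 0.0488). Semaglutide 11 was the highest of its group for most of the 33 genes, among them Atp6v0b, Atp6v1g1, Atp6v1f, Atp6v1h, Atp6v0e, Ctsh, Ctsl, Ctsb, Lamp1 and Lamp2. It was the lowest for Atp6v0a1, Atp6v0a2, Atp6v0c and Ctsa. Semaglutide 11 had the lowest scaling factor of the 16 libraries, 0.853, and Dicretin 14 the highest, 1.122.

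Calorie restriction against saline gave 0 higher genes and 1 lower, Ctss, with 3.42% of all genes higher and 4.11% lower. A fit of only these 2 groups gave 5 lower. Over all genes, that fit called 1329 higher and 1240 lower, where the fit of 4 groups called 442 and 530. The median log2 fold change was -0.11, beside -0.011 for all tested genes. No gene was higher at an unadjusted p under 0.05 and 5 were lower, beside 10.9% and 12.3% of all genes. DESeq2 called 0 higher and 3 lower, and limma-voom 0 and 1. Atp6v1e1 was below saline without passing, at -0.35 ± 0.15 (adjusted p = 0.157). Between Semaglutide and calorie restriction, 1 gene was higher and 0 were lower, against 3.05% and 3.07% of all genes. That gene, Atp6v1c1, was higher in Semaglutide by 0.48 ± 0.13 (adjusted p = 0.0304) and did not pass without calorie restriction 7, 8, 52 or 79 or Semaglutide 11 or 31 (adjusted p from 0.0585 to 0.0939). Without Semaglutide 51, 3 other genes passed as higher beside Atp6v1c1, namely Atp6v0b (adjusted p = 0.0197), Atp6v1e1 (adjusted p = 0.0437) and Atp6v1g1 (adjusted p = 0.0477). Atp6v0d2 (-1.38 ± 0.41 (adjusted p = 0.0541)) passed without Semaglutide 15 (adjusted p = 0.0362). At an unadjusted p under 0.05 there were 6 higher and 1 lower, beside 12.7% and 10.4% of all genes. DESeq2 called 3 higher and 1 lower, and limma-voom 1 and 1.

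Other genes of the lysosome were counted in the same comparison of Dicretin with saline, in which 17.5% of all genes rose and 19.2% fell, and no list was tested against that background. Of 34 hydrolases, which digest lipids, sugars and proteins, 5 rose and 9 fell, with a median log2 fold change of -0.041. Among them the acid sphingomyelinase Smpd1 (80.7 ± 10.9 CPM against 40.3 ± 2.102 CPM) and the beta-glucuronidase Gusb (60.3 ± 8.49 CPM against 28.01 ± 4.01 CPM) rose by 1.003 ± 0.13 (adjusted p = 7.97e-06) and 1.11 ± 0.15 (adjusted p = 1.34e-05). The beta-mannosidase Manba fell, with a difference of -0.81 ± 0.13 (adjusted p = 0.00011). Of 20 membrane and activator proteins 6 rose and 3 fell, with a median of 0.173. Ostm1, partner of the lysosomal chloride exchanger, rose by 0.98 ± 0.16 (adjusted p = 0.000115), and Litaf by 0.84 ± 0.14 (adjusted p = 0.000138). The cholesterol exporter Npc1 fell (45.8 ± 12.8 CPM against 96.2 ± 9.97 CPM), with a difference of -1.07 ± 0.21 (adjusted p = 0.00072). Litaf was lower in Semaglutide than in saline, at -0.92 ± 0.14 (adjusted p = 0.000947).

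Of 12 tested partners of the pump that the name rule does not take in, 4 rose and 2 fell, with a median of 0.199. The assembly factor Tmem199 rose by 1.15 ± 0.24 (adjusted p = 0.000911), and Dmxl1, a subunit of the complex that joins V1 to V0, by 0.80 ± 0.20 (adjusted p = 0.00428). Rogdi, counted with the same complex, fell from 18.2 ± 2.25 CPM to 6.79 ± 0.805 CPM, a difference of -1.43 ± 0.16 (adjusted p = 2.12e-06). It was also lower in calorie restriction than in saline, and passed under all 15 alternatives tried there (adjusted p up to 0.0205). Of 15 genes of the TFEB family and its control by nutrient sensing, 5 rose and 1 fell, with a median of 0.379. Among the transcription factors of this list Tfe3 rose, while Tfeb, Mitf and Tfec were not among the genes that passed. Tfeb passed in none of the 6 comparisons. Lamtor3, a scaffold that anchors this sensing to the lysosome, rose (43.3 ± 12.9 CPM against 14.7 ± 0.447 CPM) by 1.56 ± 0.19 (adjusted p = 4e-06), and the small GTPase Rragc by 0.72 ± 0.13 (adjusted p = 0.000229). The folliculin partners went opposite ways. Fnip2 fell, with a difference of -1.89 ± 0.25 (adjusted p = 1.49e-05), and Fnip1 rose by 0.75 ± 0.15 (adjusted p = 0.000958). Of 14 genes that sort enzymes to the lysosome, 0 rose and 2 fell, the sortilin Sort1 at -1.70 ± 0.27 (adjusted p = 7.69e-05) and Sorl1 at -1.61 ± 0.40 (adjusted p = 0.00427). Sort1 was higher in Semaglutide than in saline, at 1.16 ± 0.24 (adjusted p = 0.00929). Of the 2 tested cathepsin inhibitors neither passed.

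Kupffer cells, the resident macrophages of the liver, are rich in lysosomes, so their markers are given beside these results. Summed over 10 markers they reached 267.4 to 427.8 CPM in saline, 91.9 to 327 under calorie restriction, 126 to 448 under Semaglutide and 254 to 703 under Dicretin, and no marker was at 0 in a whole group. In Dicretin against saline 0 of the 10 passed. Against Semaglutide 0 of the 10 passed either, with a median log2 fold change of 0.799, while Ctss, Ctsd and Ctsz passed as higher there. Against calorie restriction 19 of the 33 tested genes were higher in Dicretin, among them Ctsl, Ctsb, Ctss, Ctsd and Ctsz. There 7 of the 10 markers were higher too, where 15.1% of all genes were. Of these 7, C1qb, C1qc and Clec4f passed under every alternative tried. Cd5l did not pass under 10 of 16 alternatives (adjusted p up to 0.15), Vsig4 under 4 (up to 0.0982), and C1qa (0.0607) and Csf1r (0.0513) under 1 each. In calorie restriction against saline 2 of 10 fell, Csf1r (-1.17 ± 0.31 (adjusted p = 0.0269)) and C1qb (-1.13 ± 0.34 (adjusted p = 0.0466)), beside the fall of Ctss. Their part in the Ctss result was not tested. Csf1r did not pass without saline 35, 50, 73 or 78 or calorie restriction 8 or 79 (adjusted p from 0.0546 to 0.0859), and C1qb without saline 35, 50, 73 or 78 or calorie restriction 7, 8 or 79 (adjusted p from 0.0792 to 0.125). The marker sums of Dicretin 14, 23, 64 and 65 were 353, 254, 540.1 and 703 CPM, so 64 and 65 were above all saline libraries. The part of Kupffer cells in the rises of the pump and cathepsin genes was not tested.

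**Figure D4:**
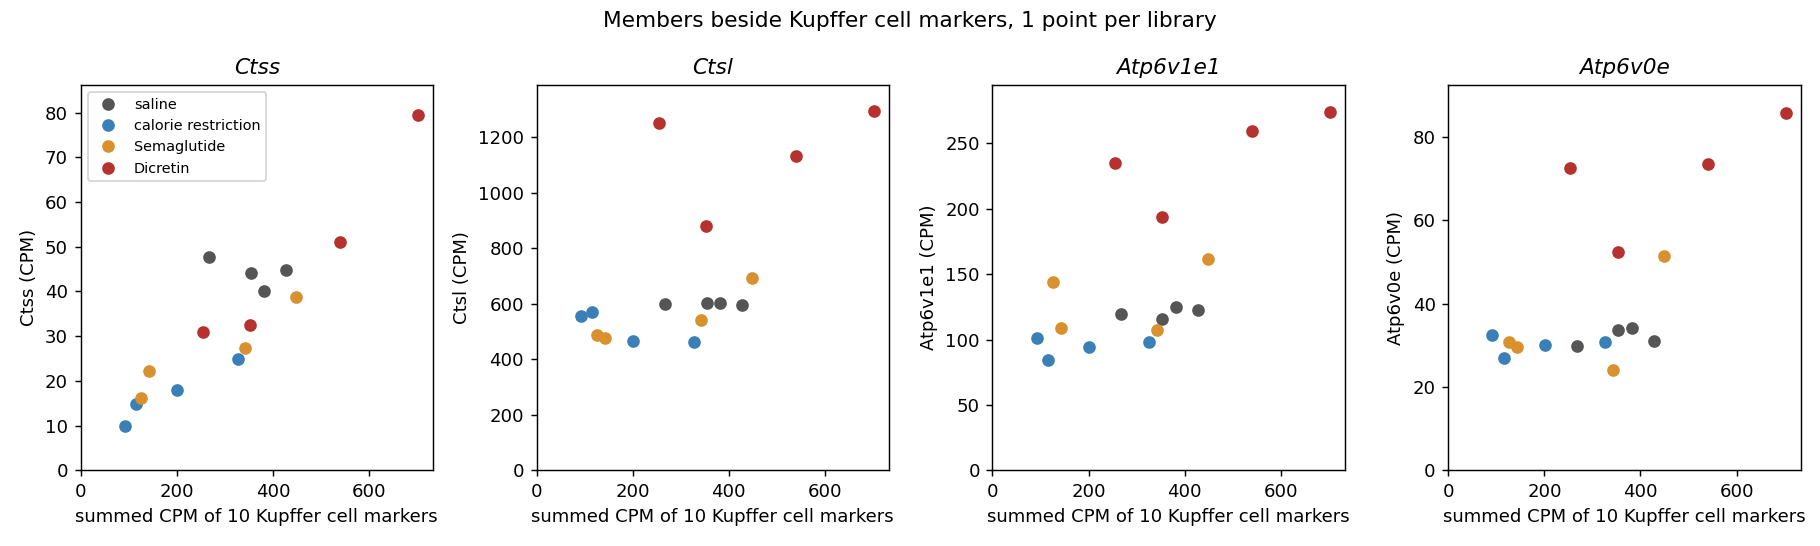
Each panel plots the CPM of 1 gene (vertical axis) against the summed CPM of 10 Kupffer cell markers (horizontal axis) in the 16 libraries, coloured by group. The 5 libraries with the lowest marker sums are also the 5 with the lowest Ctss, while for Ctsl, Atp6v1e1 and Atp6v0e every Dicretin library is above every saline library. The marker sums of Dicretin 64 and 65 are above those of all saline libraries.

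Of 9 markers of lipid-associated or monocyte-derived macrophages, summed to 48.8 to 92.5 CPM in saline and 75.1 to 168 under Dicretin, Cd9 rose (1.91 ± 0.23 (adjusted p = 5.59e-06)) and Cx3cr1 fell (-1.64 ± 0.60 (adjusted p = 0.0387)). Cx3cr1 did not pass without saline 35 or 50 or Dicretin 14, 64 or 65 (adjusted p from 0.0732 to 0.165). In Semaglutide against saline Cd9 was higher and Cx3cr1 lower too. There Cd9 did not pass under 6 of 16 alternatives (adjusted p up to 0.102) and Cx3cr1 under 9 of 15 (up to 0.18). Under calorie restriction the 9 markers summed to 26.2 to 64.1 CPM and under Semaglutide to 38.7 to 152 CPM. Against calorie restriction 19 of the 33 tested genes were higher in Dicretin, among them Ctsd, Ctss and Ctsz. There 4 of the 9 markers were higher too (Cd9, Lyz2, Mmp12 and Trem2), with a median log2 fold change of 1.618, where 15.1% of all genes were. Of these, Cd9 passed under every alternative, while Lyz2 and Mmp12 did not pass under 7 of 16 each (adjusted p up to 0.139 and 0.104) and Trem2 under 4 (up to 0.135). Against Semaglutide 16 of the 33 tested genes were higher in Dicretin, again with Ctsd, Ctss and Ctsz. There 3 of the 9 markers were higher (Cd9, Mmp12 and Trem2), where 14.8% of all genes were. Trem2 did not pass under 8 of 16 alternatives (adjusted p up to 0.174). Of the 5 hepatocyte markers Hnf4a rose and Alb fell, and their sum was 93120 to 111500 CPM in saline and 67970 to 86810 under Dicretin. In the same comparison 2 of 8 stellate cell markers and 2 of 5 red cell markers fell, 1 of 6 sinusoidal endothelial markers rose, and 0 passed of 2 neutrophil, 3 T or NK cell, 5 B or plasma cell, 3 dendritic cell and 4 cholangiocyte markers tested. Of the neutrophil markers Elane was at 0 in all Dicretin libraries, Mpo and Ngp were at 0 in Semaglutide, and those 2 and Ltf in calorie restriction. The part of these cell types in the results was not tested.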

How the data were processed

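RNA was extracted from frozen liver with Trizol and made into poly(A)-selected directional libraries, per the labels' protocols. The authors deposited whole-number counts of reads for each gene, and library totals differ, so the counts are not normalized. Per the submitters' processing notes, TopHat2 2.1.1, featureCounts and mm10 were used. Annotation release, strand setting and featureCounts version are not given in the sources used here, so genes that overlap others have uncertain levels. Library totals were 12.144 to 18.755 M counts, and 22577 of 46078 genes had no count in any library. Columns were matched to samples by the number in their names, and no 2 libraries held identical values.

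Symbols, positions and exon lengths came from GENCODE M21 (GRCm38), which matched 45229 identifiers. In R 4.3.3, edgeR 4.0.16 was run on all 16 libraries with filterByExpr, TMM scaling, glmQLFit (robust) and glmQLFTest for 6 comparisons, with Benjamini-Hochberg adjustment over 12910 genes in each. The common biological coefficient of variation was 0.24. Promoters came from RefSeq (GRCm38.p6). The test was tried on simulated counts with known changes before use. Alternatives were DESeq2 1.42.0 size factors and Wald test, upper quartile factors, limma-voom (limma 3.58.1), no filter on low counts, 1 CPM in at least 4 libraries as the filter, fits of only the compared pair of groups, leaving out every library in turn, and Semaglutide 11 and Dicretin 14 left out together. Of the genes named, every member is accounted for. Values in every library are given for up to 6 rises and 6 falls per comparison, for 11 fixed genes and for isoform pairs, and up to 3 genes with the smallest p are named from each other list. Fnip1 was added beside Fnip2, and the transcription factors of the TFEB family were added too. Fnip1 and these factors were not followed through the alternatives. The members, lists and tests were chosen with earlier results of these data known. Of the hepatocyte list, 5 of 6 symbols were found.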

Additional observations from a re-analysis of the deposited data

Results flagged for a closer look

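The 33 tested genes were searched for libraries that stood apart from the other 3 of their group, by the gap to the nearest library over the range of the group, in 132 sets of 4 values. Such a gap was found in 5 sets (3.79%), and chance alone gives about 1 in 20. Semaglutide 11 was high for Atp6v1h at 94.2 CPM, beside 56.5 to 60.0 CPM in the other Semaglutide libraries, and high for Ctso at 87.2 CPM, beside 66.5 to 68.6 CPM. Semaglutide 15 was low for Ctsf at 20.99 CPM, beside 25.8 to 26.8 CPM. Calorie restriction 52 was high for Ctsb at 683.9 CPM, beside 576.9 to 590.7 CPM, and calorie restriction 79 was high for Atp6v0e2 at 0.868 CPM, beside 0.467 to 0.535 CPM.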

How the results depend on the processing

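No result reversed. Of the 16 rises of Dicretin over saline 12 passed under every alternative, and Atp6v0a2, Atp6v1g1, Ctsb and Ctsh did not. Of the 4 falls 3 did, without Ctsa. Against calorie restriction 15 of 19 rises and 1 of 3 falls (Atp6v0d2) did, and against Semaglutide 9 of 16 rises and 0 of 3 falls. The fall of Ctss in calorie restriction passed throughout, and the rise of Atp6v1c1 in Semaglutide over calorie restriction did not. With each library left out in turn, Dicretin had 13 to 20 genes higher and 3 to 4 lower than saline, 16 to 21 and 1 to 3 against calorie restriction, and 12 to 18 and 2 to 4 against Semaglutide. Semaglutide had 0 to 1 higher and 0 to 1 lower than saline, and 0 to 4 and 0 to 1 against calorie restriction, while calorie restriction had 0 and 1 against saline throughout. The falls against calorie restriction numbered 1 without calorie restriction 8, Dicretin 23 or Dicretin 64. The median of Dicretin against calorie restriction was 0.449 without Dicretin 65, beside 0.541 with it.

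The DESeq2 Wald test gave 1 gene higher and 2 lower in Semaglutide than saline, 3 lower in calorie restriction than saline, and 3 higher and 1 lower in Semaglutide than calorie restriction. Limma-voom gave 1 lower in Semaglutide than saline, 1 lower than calorie restriction, and 1 lower in Dicretin than Semaglutide. No low-count filter gave 0 higher in Semaglutide than calorie restriction. Fits of only the 2 groups compared gave 1 lower in Semaglutide than saline, 5 lower in calorie restriction than saline, 0 higher and 1 lower in Semaglutide than calorie restriction, and 10 higher and 0 lower in Dicretin than Semaglutide. Without Semaglutide 11 and Dicretin 14 together, 2 were lower in Semaglutide than saline, 1 than calorie restriction, and 1 lower in Dicretin than Semaglutide. The cause of these shifts was not tested.

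Over all genes, the Wald test called 472 higher and 510 lower in Semaglutide than saline (201 and 338 in edgeR), 713 and 815 in calorie restriction than saline (442 and 530), and 666 and 625 in Semaglutide than calorie restriction (394 and 396). Fits of only 2 groups called 1329 and 1240 in calorie restriction than saline, and 1216 and 1442 in Dicretin than Semaglutide (1916 and 2212). With a library left out, Semaglutide over saline ranged from 74 to 252 higher and 182 to 324 lower, calorie restriction over saline from 222 to 387 and 253 to 462, and Semaglutide over calorie restriction from 201 to 527 and 240 to 436. No paired analysis was possible because no replicate number occurs in more than 1 group. Depth limits the members near the low-count filter, such as Ctse, Atp6v0d2 and Atp6v0e2.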
